A study of Mus musculus with 21 samples.

Results

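The histone cluster genes are families of clustered genes on which cells draw for most of their new histone protein. They were taken here as every gene whose symbol begins with Hist1h, Hist2h, Hist3h or Hist4h in the deposited per-library tables, and no measured value entered the choice. This gave 56 of 25035 genes listed in either cell type, with 55 listed in the epithelial tables, 52 in the fibroblast tables and 51 in both. By the histone type in their symbols they comprise 5 H1, 9 H2a, 18 H2b, 12 H3 and 12 H4 genes. Among them Hist1h2al and Hist3h2bb-ps are annotated as processed pseudogenes. In the annotation 44 lie on chromosome 13, 10 on chromosome 3 and 2 on chromosome 11. A further 14 symbols of the same families in the annotation were not analysed here.

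The libraries came from lungs of C57BL/6 mice that all carried the Col1a2-GFP transgene, in which a collagen gene promoter drives the green fluorescent protein, so the fibroblasts studied are the cells in which that promoter was active. After depletion of CD31, CD45, CD146 and Ter119 positive cells, epithelial cells were sorted as Epcam positive (and GFP negative, a gate that the E18.5 epithelial label does not name), and fibroblasts as Epcam negative and GFP positive. Each cell type was sampled on embryonic day 18.5 (E18.5) and on postnatal days 0.5, 2, 7 and 28 (P0.5 to P28) with 2 libraries per stage, and fibroblasts also on day 56 (P56) with 1 library, 21 libraries in all. No treatment was given in any group. The labels do not say whether the 2 libraries of a stage came from separate animals, and every p-value below therefore reflects library-to-library spread alone, part of which may be technical. The assay was 3′ SAGE-seq, which counts short tags next to a restriction site near the 3′ end of polyadenylated RNA.

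Depth was 2146071 to 5729829 reads assigned to genes per library, and values are the authors' normalised read counts, in which 1 read was worth 0.134 to 0.456. The summed level of 6 epithelial markers was 5624 to 16026 in the epithelial libraries and at most 33.6 in the fibroblast libraries, with Epcam at 0 in 4 of the 6 fibroblast groups. The summed level of 6 fibroblast markers was 11777 to 39628 in the fibroblast libraries and 156 to 2380 in the epithelial libraries. The highest epithelial sums, at P28, were nearly all Vim, with a mean of 2309 there. Col1a1, Col1a2, Col3a1 and Dcn had means of 0.916, 3.90, 11.5 and 13.1 in the same libraries. Haemoglobin and other erythroid genes summed to between 0.134 and 7395, and leukocyte genes to between 0 and 1346, so both varied widely among the libraries in spite of the depletion.

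Replication-dependent histone genes are transcribed in S phase, when chromatin is doubled, and most of their messenger RNAs end in a conserved stem-loop bound by the stem-loop binding protein Slbp in place of a poly(A) tail. Some of these genes also give polyadenylated transcripts, often by reading past the stem-loop to a downstream poly(A) signal, and such transcripts are known from differentiated cells. H2A, H2B, H3 and H4 form the core of the nucleosome, and H1 binds the linker DNA between nucleosomes. A library made from polyadenylated RNA therefore samples these genes only in part.

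The genes are near-identical copies, so the sequences that could serve as tags are shown first, because they decide which genes can be told apart. The sources used here name neither the anchoring enzyme nor the tag length. Windows of 26 bases from the CATG site that SAGE usually uses were taken from GENCODE vM21 transcripts (GRCm38, the assembly also called mm10, which is the build named in the submitters' processing notes). Of 21734 protein-coding genes with a CATG 74.6% were listed in the tables, against 6.88% of 189 without one. For GATC, the site of another common anchoring enzyme, the shares were 75.2% of 21452 genes with the site and 21.4% of 471 without. In the windows below capitals mark the CATG, and each is written 5′ to 3′ on the transcript strand.
H2b window, here from Hist1h2bp at chr13:21787700-21787725 (+): CATGaactcgttcgtgaacgacatct
H2a window, here from Hist2h2aa1 at chr3:96245733-96245758 (+): CATGgcggcggtgctggagtacctaa
Hist1h2ao window at chr13:21810466-21810491 (+): CATGtctggacgcggcaagcagggtg
Hist1h2bf window at chr13:23573980-23574005 (-): CATGaactcgtttgtgaacgacatct
Hist1h2ab window at chr13:23751132-23751157 (+): CATGtctggacgcggaaagcagggtg
The H2b window occurred letter for letter in transcripts of 13 of the 18 H2b genes, Hist1h2bb, bc, be, bg, bh, bj, bk, bl, bm, bn, bp, bq and br. In Hist1h2bc, Hist1h2be and Hist1h2bh it is not at the last CATG of the transcripts that hold it. That last CATG lies 28, 42 and 65 bases from the end, in a window found in no other gene. Nor is it at the last CATG of the nonsense-mediated decay transcripts of Hist1h2bq and Hist1h2br. The H2a window occurred in Hist1h2al, which the annotation calls a processed pseudogene, and in Hist2h2aa1, aa2, ab and ac. The Hist1h2ao window is also held by Hist1h2ap, which was not analysed here. Cutting the windows to their first 17 or 21 bases left the same numbers of members, 13, 5 and 1. Against the H2b window Hist1h2bf differs by C13T, and against the Hist1h2ao window Hist1h2ab differs by C16A, counting from 1 at the first base of CATG with the shared window's base first.

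The 19 genes that hold these 3 windows carried 95.7% of the 56234 reads assigned to histone cluster genes, and the windows were picked because they hold the genes with the highest values. The 37 other genes together had 2411 reads over all 21 libraries. Most copies with a shared window had nearly even reads. Among 10 of the H2b genes (all but Hist1h2bc, Hist1h2be and Hist1h2bp, a selection made after seeing the values), reads within a library differed between copies with a chi-square per degree of freedom of 0.239 to 1.71 (median 1.05 over 21 libraries), where counting error alone gives values around 1. Hist1h2bp had a median of 2.99 times the mean of those 10 copies (1.95 to 3.32), Hist1h2be a median of 3.04 times (2.44 to 3.77) and Hist1h2bc a median of 1.90 times (1.53 to 2.63). The 4 Hist2h2a genes had a chi-square per degree of freedom of 0.172 to 4.14 (median 0.743), and Hist1h2al had a median of 2.01 times their mean (1.85 to 2.33). Where reads come from a shared window, a change of 1 copy cannot be told apart from a change of the others. A count of called copies within a set is then close to a count of 1. For Hist1h2bc, Hist1h2be and Hist1h2bh the values do not show which CATG gave the reads. The sets are used below as the H2b set of 13 genes, the H2a set of 5 genes and Hist1h2ao.

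**Figure D1:**
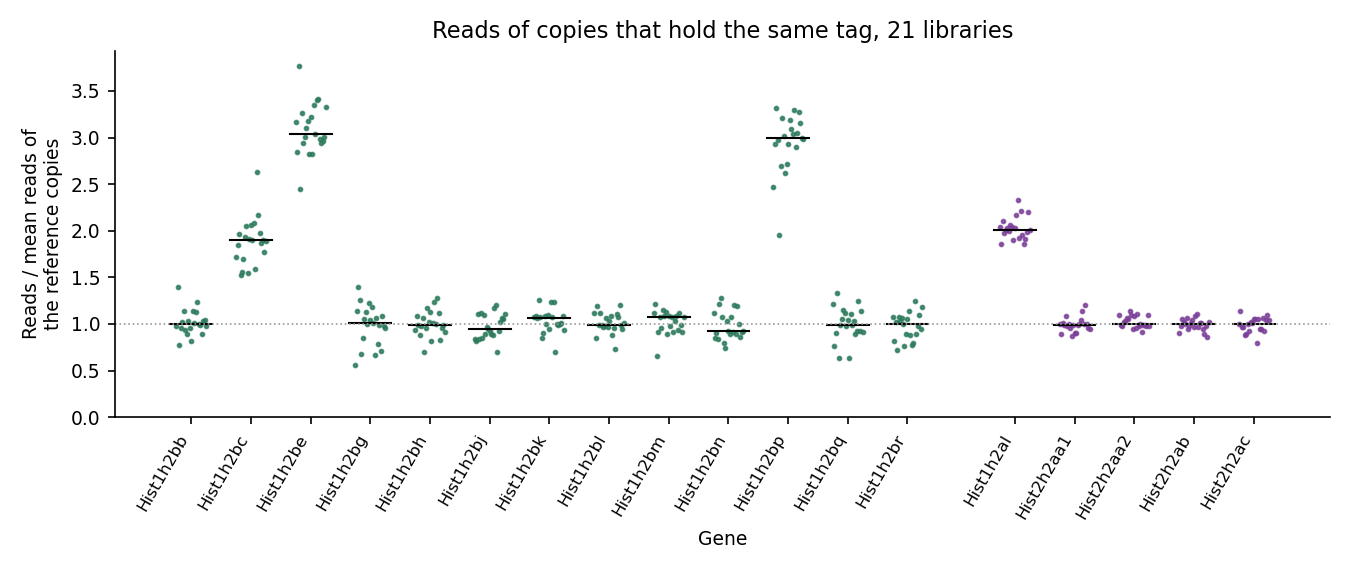
Reads of each copy divided by the mean reads of the reference copies (10 H2b genes, green, or 4 Hist2h2a genes, purple) in each of the 21 libraries; points are libraries, spread sideways only for legibility, and the black line is the median. Most copies lie around 1, while Hist1h2be and Hist1h2bp lie near 3.04 and 2.99 and Hist1h2bc and Hist1h2al near 1.90 and 2.01.

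Histone cluster genes held 27387 reads over the 10 epithelial and 28847 over the 11 fibroblast libraries. Their summed value was 565 ± 242 in epithelial cells at E18.5, 945 ± 133 at P0.5, 626 ± 129 at P2, 863 ± 148 at P7 and 1132 ± 162 at P28 (SD, n = 2). In fibroblasts the sum was 757 ± 172 at E18.5, 606 ± 6.31 at P0.5, 749 ± 28.6 at P2, 924 ± 219 at P7 and 914 ± 197 at P28 (SD, n = 2), and 587 in the P56 library. The P56 library is on a lower scale, as its values summed to 769260 over all genes, against 896099 in the next lowest fibroblast library. Per 1e6 reads assigned to genes its histone sum was 763, above the 579 and 593 at P0.5 and the 654 and 704 at P2. The make-up of these sums differed by stage. The H2a set took 76.8% and 76.9% of histone reads in the P0.5 epithelial libraries but 19.1% and 19.2% in the P7 fibroblast libraries. The H2b set took 14.7% to 38.8% of histone reads in epithelial libraries and 24.3% to 65.2% in fibroblast libraries. Hist1h2ao took 2.56% to 26.2% in epithelial libraries and 0.778% to 33.0% in fibroblast libraries. In these bulk samples fewer cells of a type and less RNA per cell cannot be told apart.

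**Figure D2:**
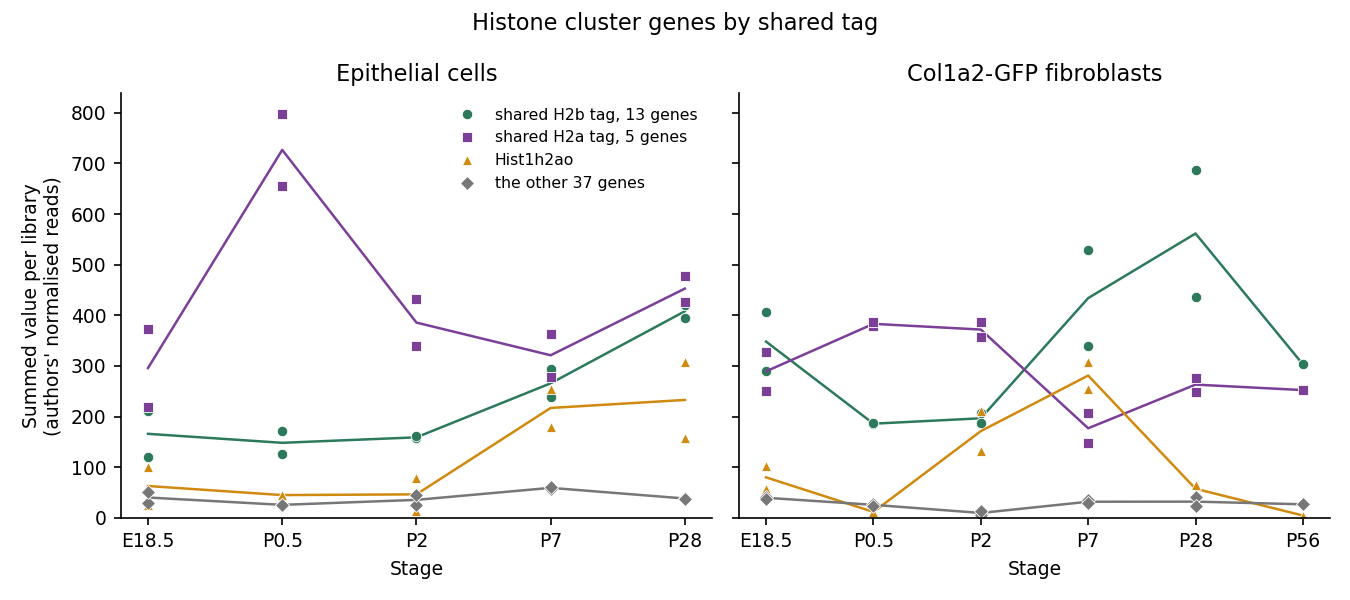
Summed normalised value per library of the H2b set, the H2a set, Hist1h2ao and the 37 other histone cluster genes, by stage, in epithelial cells (left) and fibroblasts (right); points are libraries and lines join stage means. The H2a set is highest in P0.5 epithelial cells (727), the H2b set in P28 fibroblasts (562) and Hist1h2ao in P7 fibroblasts (281).

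The H2b set was higher at P7 and P28 than at P0.5 and P2 in both cell types. In epithelial cells its summed values were 121 and 211 at E18.5, 171 and 126 at P0.5, 157 and 161 at P2, 293 and 238 at P7, and 421 and 395 at P28. In fibroblasts they were 406 and 289.6 at E18.5, 185 and 187 at P0.5, 206 and 187 at P2, 529 and 339 at P7, 687 and 436 at P28, and 303 at P56. The P28 epithelial libraries lay above all earlier epithelial libraries, and the P7 fibroblast libraries lay above those of P0.5 and P2. Hist1h2bp had 17.2 and 35.03 at E18.5, 29.7 and 22.1 at P0.5, 18.2 and 25.05 at P2, 51.9 and 39.4 at P7, and 63.7 and 61.4 at P28 in epithelial cells. In fibroblasts Hist1h2bp had 65.4 and 51.6 at E18.5, 30.8 and 32.2 at P0.5, 35.2 and 29.3 at P2, 89.5 and 61.4 at P7, 120.5 and 73.4 at P28, and 49.7 at P56. Its lowest fibroblast values were those of P0.5 and P2. Hist1h2be, whose annotated transcripts run 1861 bases past the stem-loop, had 22.1 and 34.1 at E18.5, 33.8 and 18.1 at P0.5, 30.5 and 27.4 at P2, 48.6 and 40.6 at P7, and 77.2 and 63.9 at P28 in epithelial cells. In fibroblasts Hist1h2be had 71.9 and 45.6 at E18.5, 33.4 and 32.2 at P0.5, 36.3 and 34.6 at P2, 87.7 and 55.1 at P7, 113 and 73.8 at P28, and 55.4 at P56. Hist1h2be overlaps Hist1h1e in the annotation on the same strand. The labels do not say whether reads were counted by strand, and doing so would not separate these genes.

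The H2a set peaked at birth in epithelial cells. Its summed epithelial values were 218 and 373 at E18.5, 798 and 655 at P0.5, 339 and 432 at P2, 363 and 279 at P7, and 478 and 427 at P28, so both P0.5 libraries lay above all others. In fibroblasts they were 328 and 251 at E18.5, 379 and 387 at P0.5, 386 and 358 at P2, 206 and 147 at P7, 277 and 249 at P28, and 252 at P56, with both P7 libraries below the rest. Hist1h2al had the highest mean of the family in epithelial cells (146), while in fibroblasts its mean of 99.7 was below the 109.7 of Hist1h2ao. It had 73.6 and 118 at E18.5, 275 and 217 at P0.5, 114 and 146 at P2, 121 and 94.8 at P7, and 162 and 137 at P28 in epithelial cells, and 110.4 and 88.3, 139 and 126, 138 and 117, 65.4 and 47.6, and 91.8 and 88.5 at the same stages in fibroblasts, with 84.4 at P56. The Hist2h2a copies followed the same course. Hist2h2aa1 had epithelial values of 36.0 and 57.1 at E18.5, 132 and 109 at P0.5, 61.1 and 69.9 at P2, 60.7 and 43.9 at P7, and 68.7 and 71.7 at P28, and fibroblast values of 48.9 and 36.7, 59.5 and 65.1, 64.7 and 68.3, 35.2 and 30.1, 46.4 and 38.3, and 39.9 at P56. Hist2h2aa2 had epithelial values of 39.6 and 62.8 at E18.5, 127 and 112 at P0.5, 58.3 and 76.5 at P2, 63.5 and 52.3 at P7, and 86.9 and 68.8 at P28, and fibroblast values of 58.7 and 38.8, 66.1 and 64.0, 62.2 and 54.6, 34.9 and 24.6, 45.2 and 43.9, and 41.2 at P56. In all 4 Hist2h2a genes the highest epithelial values were those of P0.5 and the lowest fibroblast values those of P7. Hist2h2ab had epithelial values of 32.8 and 62.5 at E18.5, 137 and 112 at P0.5, 56.5 and 76.1 at P2, 57.3 and 45.0 at P7, and 79.9 and 75.5 at P28, and fibroblast values of 52.5 and 44.4, 66.4 and 63.3, 62.9 and 60.6, 33.3 and 22.1, 45.2 and 34.7, and 42.8 at P56. Hist2h2ac had epithelial values of 36.3 and 72.6 at E18.5, 126 and 105 at P0.5, 49.7 and 63.9 at P2, 60.7 and 42.5 at P7, and 81.1 and 73.5 at P28, and fibroblast values of 57.0 and 43.1, 47.5 and 69.2, 58.7 and 56.8, 37.5 and 23.0, 48.4 and 43.9, and 43.9 at P56. As these genes hold 1 window, their likeness adds little to the sum.

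Hist1h2ao, an H2A gene, took another course over the stages. Its epithelial values were 25.9 and 99.7 at E18.5, 44.1 and 45.8 at P0.5, 13.7 and 79.1 at P2, 254 and 180.2 at P7, and 308 and 158 at P28. In fibroblasts they were 103 and 56.7 at E18.5, 11.01 and 12.4 at P0.5, 132 and 211 at P2, 309 and 253 at P7, 49.0 and 65.8 at P28, and 4.56 at P56. In fibroblasts the values thus fell at birth, were high at P2 and P7 and fell again at P28 and P56, and no stage overlapped with the next. Those of E18.5 and P28 overlapped. In epithelial cells the 2 libraries of E18.5 and of P2 lay far apart, and the P7 and P28 libraries lay above all earlier ones.

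The annotated Hist1h2ao transcript is short, and a run of 12 A stands directly before its stem-loop, with 31 bases after the stem-loop. The stretch is shown because it is the one run of 12 or more A in the first 700 bases of the transcripts of any of the 56 genes; such a run was found in 2.42% of 21856 other protein-coding genes. Capitals mark the run of A in the first stretch and the arms of the stem-loop in the second.
Hist1h2ao, run of A and stem-loop at chr13:21810886-21810913 (+): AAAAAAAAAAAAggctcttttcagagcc
Hist1h2be, stem-loop at chr13:23585531-23585546 (-): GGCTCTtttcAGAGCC
The stem-loop was searched on the transcript strand in the first 700 bases, as a 6-base arm of GG followed by 4 bases that are each C or T, a loop of 4 bases that begins with T, and the reverse complement of the first arm. It was found in 35 of the 56 genes and in 18 other protein-coding genes, or 0.0824% of them. A match is a description of these letters only.

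Genes of DNA replication were set beside Hist1h2ao as a list of 20, among them the helicase subunits Mcm2 to Mcm7, the helicase factor Gins2 and thymidine kinase Tk1. Their summed values in epithelial cells were 88.2 ± 21.2 at E18.5, 83.9 ± 3.89 at P0.5, 89.6 ± 6.14 at P2, 297 ± 21.8 at P7 and 265 ± 72.0 at P28 (SD, n = 2). In fibroblasts they were 117 ± 11.1 at E18.5, 73.1 ± 2.43 at P0.5, 193 ± 47.2 at P2, 313 ± 60.6 at P7 and 97.8 ± 1.22 at P28 (SD, n = 2), and 54.9 at P56. The order of the fibroblast stage means was the same for Hist1h2ao and for this sum, with P7 highest, then P2, E18.5, P28, P0.5 and P56. In epithelial cells the orders differed: Hist1h2ao ran P28, P7, E18.5, P2 and P0.5 from high to low, and the replication sum P7, P28, P2, E18.5 and P0.5. These are stage means of the same libraries, so the orders are a description. A list of 15 mitosis genes, among them Mki67, the proliferation marker, and Top2a, the topoisomerase of dividing cells, summed to 31.9 ± 1.97 at P0.5, 223 ± 14.3 at P7 (SD, n = 2) and 5.77 at P56 in fibroblasts, and to 22.6 ± 2.34 at P0.5 and 137 ± 6.07 at P7 in epithelial cells. The H2b set did not share this order: its fibroblast mean was highest at P28, at 562 ± 178, where the replication sum was 97.8 ± 1.22. The H2a set was lowest in fibroblasts at P7, at 177 ± 41.7, where the replication sum was highest.

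**Figure D3:**
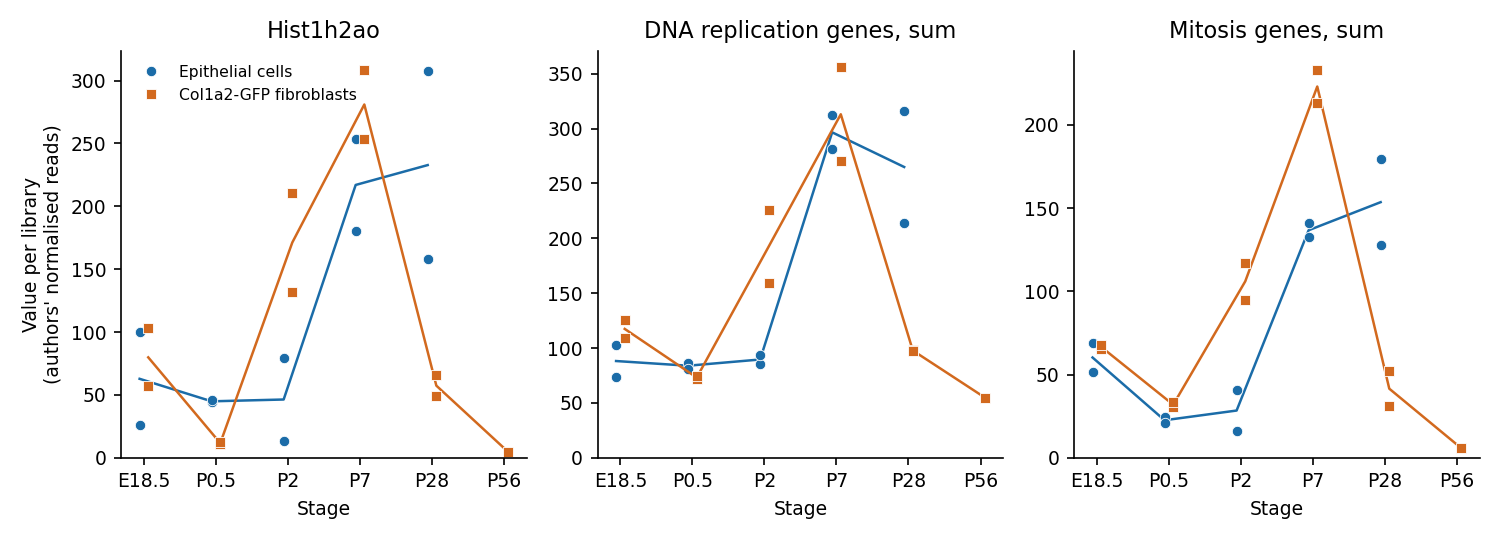
Normalised value per library of Hist1h2ao (left), of the summed DNA replication genes (middle) and of the summed mitosis genes (right), by stage; blue circles are epithelial and orange squares fibroblast libraries, and lines join stage means. All 3 are highest in fibroblasts at P7 (281, 313 and 223) and low there at P56 (4.56, 54.9 and 5.77).

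The linker histone genes, Hist1h1a, c, d, e and t, were low, and none of them holds any of the 3 windows. The 5 H1 genes summed to 17.3 to 44.2 in epithelial libraries and 4.27 to 27.8 in fibroblast libraries. Hist1h1d had epithelial values of 7.14 and 23.7 at E18.5, 4.77 and 5.37 at P0.5, 4.10 and 10.9 at P2, 8.22 and 21.8 at P7, and 9.27 and 9.79 at P28. In fibroblasts Hist1h1d had 4.49 and 4.69 at E18.5, 6.92 and 7.11 at P0.5, 0 in both P2 libraries, 6.83 and 8.77 at P7, 3.54 and 0.399 at P28, and 0 at P56. Both P2 fibroblast libraries thus lay below all those of E18.5, P0.5 and P7. Hist1h1a had 1.30 and 0 in epithelial cells at E18.5 and between 2.73 and 9.56 in the later epithelial libraries. In fibroblasts Hist1h1a was 4.49 and 11.5 at E18.5 and 0.134 at P56. Hist1h1c reached 11.9 at P56, against 1.65 to 6.46 in the other fibroblast libraries.

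Transcripts of H3 and H4 had few reads in these libraries. The 24 H3 and H4 genes had 278 reads in all, 0.494% of the histone reads, and 21 of them had at most 5 reads in every library. Differences between stages in these 21 genes were not detectable at such low counts. The other 3 were Hist2h3b, Hist2h3c1 and Hist2h3c2, which had 20, 19 and 19 reads in the P56 fibroblast library and at most 5 elsewhere, and were singled out after their values were seen. These 3 share another window, though it is not at the last CATG of Hist2h3c1, so they too may be close to 1 measurement. The closest relatives of the high copies were also low: Hist1h2bf had at most 16 reads and Hist1h2ab at most 14 reads in any library. Among the 37 genes outside the sets Hist2h2bb, with a window 3 bases from the H2b window, reached 12.1 and 9.17 in P28 fibroblasts, against 0.134 at P56 and 0 to 7.55 in all other libraries.

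Each stage was then compared with the next by limma on log2(value + 1), with Benjamini-Hochberg adjustment over all genes tested and a threshold of 0.05. In the epithelial fit 25 histone cluster genes were among the 12143 genes that passed the filter on low values. From E18.5 to P0.5 the H2a set rose: 6 genes were higher and 0 lower, where 7.24% of all genes tested were higher and 7.09% lower. The 6 were the 5 genes of the H2a set, with log2 changes of 1.15 to 1.43, for example Hist2h2aa2 (1.25, SE 0.25, adjusted p = 0.0048 by limma), and Hist1h1a (2.19, SE 0.53, adjusted p = 0.0146 by limma). Hist1h1a had only 4 and 0 reads in the E18.5 libraries, so the size of its change depends on the 1 added to each value. From P0.5 to P2 4 of these 5 H2a genes fell (0 higher, against 5.13% of all genes higher and 3.69% lower), by 1.02 for Hist2h2ac, 0.92 for Hist1h2al, 0.87 for Hist2h2aa1 and 0.83 for Hist2h2aa2 on the log2 scale. Erythroid genes moved in part with the set: their sum was 1838 ± 1470 at E18.5, 5136 ± 1469 at P0.5, 4727 ± 3773 at P2 and 179.8 ± 176 at P7 (SD, n = 2), with 1 of the 6 tested called higher from E18.5 to P0.5 and 0 called from P0.5 to P2, and 0 or 1 of the 7 listed at 0 in each of these stages. Their part in the result was not tested. Without P0.5 replicate 1 the count from E18.5 to P0.5 was 2, and Hist1h1a was not called without either P0.5 library or without E18.5 replicate 2 (1.59). The count from P0.5 to P2 was 0 without either P0.5 library or without P2 replicate 1, 1 without P2 replicate 2 and 2 without either P28 library.

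From P2 to P7 Hist1h2ao rose in epithelial cells, by 2.65 (SE 0.64, adjusted p = 0.0362 by limma), as the 1 histone cluster gene called, with 1.55% of all genes higher and 2.17% lower. In the same comparison 5 of the 16 DNA replication genes tested rose and 0 fell, for example Mcm3 by 3.38, Tk1 by 2.48 and Gins2 by 2.69. Of 8 mitosis genes tested 3 rose, among them Top2a by 2.98. Markers of other cells were lower, 4 of 5 fibroblast markers tested (sums of 765 ± 157 and 161 ± 6.69, SD, n = 2), 4 of 6 erythroid genes (4727 ± 3773 and 179.8 ± 176) and 2 of 8 leukocyte genes (273 ± 226 and 18.9 ± 7.81, with 1 and 6 of the 11 listed at 0). Their part in this result was not tested. The call of Hist1h2ao was lost without either P0.5 library or either P7 library, and without P2 replicate 1, when the change was 1.42; with DESeq2 the change was 2.23 and also not called. Leaving out P2 replicate 2, or either E18.5 library, gave counts of 2 and 3. From P7 to P28 limma called 0 histone cluster genes (4.87% of all genes higher, 2.41% lower), with 5 at an unadjusted p under 0.05, 1 called by edgeR and 0 by DESeq2.

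Over the whole span from E18.5 to P28 the H2b set rose in epithelial cells. Of the 25 genes tested 14 were higher and 0 lower, against 13.5% of all genes higher and 11.3% lower. The median log2 change was 1.09 over the 25 and 0.03 over all genes tested. The 13 copies of the H2b set are among the 25 and largely set this count and this median. The 14 were 12 genes of the H2b set, with changes of 1.07 to 1.67, Hist1h2ao and Hist1h1a. Hist1h2bg rose by 1.67 (SE 0.42, adjusted p = 0.0098 by limma) and Hist1h2be by 1.33 (SE 0.30, adjusted p = 0.0046 by limma). The changes of Hist1h2bj, Hist1h2bh, Hist1h2bq and Hist1h2bl were 1.45, 1.38, 1.38 and 1.33. Hist1h2bb, the other copy of the set, had a change of 1.05 with an adjusted p of 0.0526 by limma. Hist1h2ao rose by 2.09 (SE 0.64, adjusted p = 0.0284 by limma) and Hist1h1a by 2.02 (SE 0.53, adjusted p = 0.0127 by limma), the latter from only 4 and 0 reads at E18.5. In the same comparison 7 of 16 DNA replication genes rose and 0 fell, among them Gins2 by 3.42 and Tk1 by 2.26. Of 11 genes of histone mRNA processing tested 1 rose and 1 fell, with a median log2 change of -0.16: Slbp, whose protein binds the histone stem-loop, rose by 1.03 (54.6 ± 12.5 to 111 ± 5.53, SD, n = 2) and Lsm10, a subunit of the U7 particle that cuts histone transcripts, fell by 0.60.

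Leukocyte genes moved with that comparison. Their sum was 148 and 402 in the E18.5 epithelial libraries and 1346 and 1158 at P28, 6 of the 8 tested were called higher, and of the 11 listed 1 was at 0 in both E18.5 libraries and 0 at P28. Ptprc, which encodes the CD45 antigen used for depletion, was 0.324 and 1.26 at E18.5 and 12.4 and 21.3 at P28. Of the fibroblast markers Vim went from 290.2 to 2309 while Col1a1, Col1a2 and Col3a1 fell. The part of these genes in the rise was not tested. At P7 the leukocyte sum was 18.9 ± 7.81 and 6 of the 11 were at 0. The H2b set stood at 266 ± 39.3 there, against 159 ± 3.07 at P2 (SD, n = 2), with no gene of the set called between P2 and P7. What leukocyte genes contributed at these stages was not tested either. Without E18.5 replicate 1 the count of 14 was 2, and without P28 replicate 1 or 2 it was 8 or 7. Hist1h2ao was not called without E18.5 replicate 1 (1.14) or P28 replicate 1 (1.61), and Hist1h1a without E18.5 replicate 2 (1.42) or either P28 library.

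**Figure D4:**
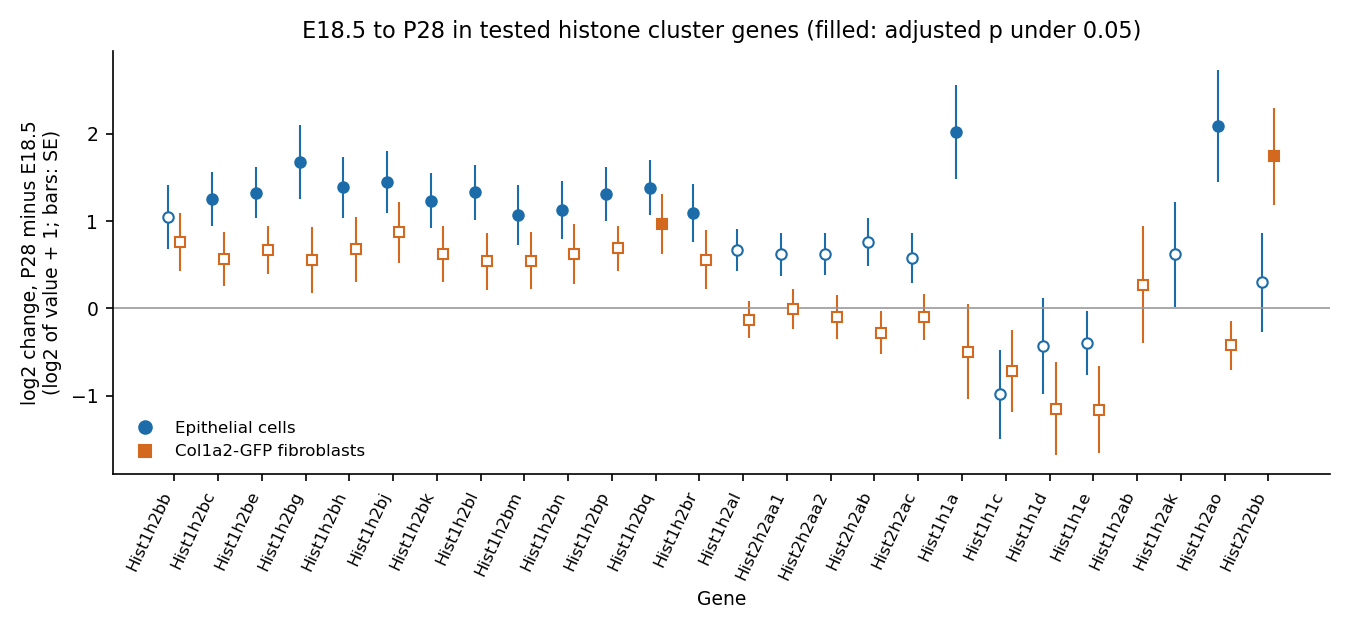
log2 change from E18.5 to P28 (P28 minus E18.5, log2 of value + 1) of every tested histone cluster gene in epithelial cells (blue circles) and fibroblasts (orange squares); bars are standard errors of the limma fit and filled symbols have an adjusted p under 0.05. The 13 genes of the H2b set lie above 0 in both cell types, 12 called in epithelial cells and 1, Hist1h2bq, in fibroblasts.

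In fibroblasts 25 histone cluster genes were among 11954 genes tested. From E18.5 to P0.5 6 fell and 0 rose, against 7.34% of all genes lower and 8.05% higher. Hist1h2ao fell by 2.61 (SE 0.28, adjusted p = 4.64e-06 by limma), and the H2b genes Hist1h2bg, Hist1h2br, Hist1h2bl, Hist1h2bc and Hist1h2bp by 0.86 to 1.23. Without E18.5 replicate 1, P0.5 replicate 1 or P0.5 replicate 2 the count was 1, and without E18.5 replicate 2 it was 3. From P0.5 to P2 Hist1h2ao rose by 3.73 (SE 0.28, adjusted p = 6.44e-08 by limma), from 11.7 ± 0.947 to 171 ± 55.7 (SD, n = 2), 14.7-fold. Hist1h1d was called lower; with 0 reads in both P2 libraries it was at least 7.43-fold lower against a floor of 3 reads per library. These 2 were the genes called, with 9.74% of all genes higher and 7.20% lower. In this comparison 7 of 17 DNA replication genes rose and 0 fell, for example Pola1 by 2.72 and Gins2 by 2.25. From E18.5 to P0.5, where Hist1h2ao fell, 2 of the 17 rose and 3 fell, with a median log2 change of -0.61. Of the 11 histone mRNA processing genes tested 1 rose and 2 fell from E18.5 to P0.5, and 1 rose and 1 fell from P0.5 to P2. Among them Npat, the coactivator of histone gene transcription, fell by 1.27 and then rose by 1.24.

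From P2 to P7 genes of the H2b set rose and those of the H2a set fell in fibroblasts, though how many were called in each direction changed when single libraries were left out. Of 25 genes 8 rose and 5 fell, where 2.36% of all genes rose and 4.28% fell. The median log2 change was 0.95 over the 25 and 0.01 over all genes. The 13 copies of the H2b set are among the 25 and largely set this median. The 5 that fell were the whole H2a set, Hist1h2al by 1.17 (SE 0.21, adjusted p = 0.0018 by limma) and the others by 0.95 to 1.15. Of the H2b set 6 genes rose, from 0.95 for Hist1h2be to 1.41 for Hist1h2bl, and Hist1h2bp rose by 1.18 (SE 0.26, adjusted p = 0.0095 by limma). Hist2h2bb rose by 1.91, and Hist1h1d, at 0 reads in P2, was at least 8.26-fold higher at P7. Of 17 DNA replication genes tested 2 rose and 0 fell. Erythroid genes also fell, from 3208 ± 1456 to 137 ± 61.9 (SD, n = 2), with 4 of 6 tested called lower and 0 of the 6 at 0 at either stage; their part in the fall of the H2a set was not tested. From E18.5 to P0.5 the erythroid sum rose from 761 ± 187 to 3165 ± 603. The H2a set was then 289 ± 54.0 and 383 ± 6.05 (SD, n = 2), with no gene of the set called. The part of the erythroid genes was not tested there either. In place of 8 higher and 5 lower, 2 and 1 were called without P2 replicate 1, 4 and 2 without P2 replicate 2, 1 and 5 without P7 replicate 1, and 6 and 1 without P7 replicate 2.

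From P7 to P28 Hist1h2ao fell by 2.28 in fibroblasts (SE 0.28, adjusted p = 9.64e-06 by limma), 4.89-fold, together with Hist1h1d by 1.79, while Hist1h2al rose by 0.68 (11.3% of all genes higher, 9.49% lower). In the same comparison 8 of 17 DNA replication genes fell and 0 rose, for example Tk1 by 2.83 and Gins2 by 2.64. Npat fell by 1.52, 1 of 2 histone mRNA processing genes of 11 that fell, with 0 higher. Also lower were 6 of 8 mitosis genes, for example Top2a by 2.78. The count of 3 was 1 without P7 replicate 2 or P28 replicate 2; Hist1h1d was then not called in either case, with changes of -1.63 and -0.94, nor by edgeR or DESeq2, and Hist1h2al was also not called without P28 replicate 1. Erythroid genes were higher in 4 of 6 tested (sums of 137 ± 61.9 and 1767 ± 1569, SD, n = 2, with 0 of the 6 listed at 0 at either stage) and leukocyte genes in 2 of 3 (1.84 ± 2.60 and 80.5 ± 62.1, SD, n = 2, with 6 and 2 of the 9 listed at 0). Their part in these results was not tested. From P28 to the single P56 library, whose spread the fit takes from the other stages, Hist1h2ao fell by 3.38 (SE 0.35, adjusted p = 9.96e-07 by limma), Hist2h2bb by 3.35, Hist1h1a by 2.37 and Hist1h2bp by 0.91, and Hist1h1c rose by 1.66. Of all genes 12.2% were higher and 19.1% lower, with a median of -0.12. DNA replication genes fell in 4 of 17 and mitosis genes in 5 of 8. Of 11 histone mRNA processing genes 2 fell and 0 rose, Slbp by 2.08 and Lsm10 by 0.97. The count of 5 was 2 without P28 replicate 1, when Hist1h1a, Hist1h1c and Hist1h2bp (-0.55) were not called. Hist1h1c was also not called without P28 replicate 2, nor Hist1h2bp by edgeR, with TMM scaling or without either P0.5 library. Erythroid genes were lower in 4 of 6 tested (sums of 1767 ± 1569, SD, n = 2, and 0.134, with 5 of the 6 listed at 0 at P56), leukocyte genes in 2 of 3 (80.5 ± 62.1, SD, n = 2, and 2.01) and fibroblast markers in 5 of 6. Their part in these results was not tested.

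Over the span from E18.5 to P28 only Hist1h2bq (0.97, SE 0.35, adjusted p = 0.0369 by limma) and Hist2h2bb (1.74, SE 0.56, adjusted p = 0.0213 by limma) were called in fibroblasts, 2 of 25 genes, with 18.7% of all genes higher and 14.9% lower. The other 12 genes of the H2b set had changes above 0 that did not pass. Hist1h2ao had a change of -0.42 (SE 0.28, adjusted p = 0.272 by limma). Of 17 DNA replication genes tested 2 were higher and 2 lower. Without either P0.5 library Hist2h2bb alone was called. Neither gene was called without E18.5 replicate 2 or P28 replicate 1, when 1 other histone gene was called lower, nor without P28 replicate 2, when 2 others were called higher, nor by DESeq2.

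Averaged over the 5 stages that both cell types share, the H2b set was lower and the H2a set higher in epithelial cells than in fibroblasts. This fit used recovered reads per 1e6 reads (CPM), scaled together over the 20004 genes listed in both cell types, and tested 26 histone cluster genes among 13386. In it 8 were higher and 12 lower in epithelial cells, but 32.5% of all genes were higher and 29.9% lower, so a share of 8 in 26 is near the background. The 12 lower genes all belonged to the H2b set, with differences of -0.48 to -0.69, for example Hist1h2bp (34.4 ± 16.03 against 57.0 ± 29.3 CPM, SD, n = 10 libraries each, difference -0.69, SE 0.13, adjusted p = 1.35e-04 by limma). The 5 genes of the H2a set were higher by 0.45 to 0.55, for example Hist2h2aa2 (71.0 ± 26.1 against 47.5 ± 13.4 CPM, SD, n = 10, difference 0.55, SE 0.11, adjusted p = 1.98e-04 by limma). In summed CPM the H2a set overlapped between the cell types at E18.5 (213 and 353 in epithelial cells, 315 and 237 in fibroblasts). At P2 it overlapped as well (324 and 397 against 365 and 345). Hist1h1d was higher by 1.30, Hist1h2ak by 0.89 and Hist1h1e by 0.63. The annotated transcript of Hist1h2ak has no CATG and the gene overlaps another annotated gene, so the source of its reads is unclear. Hist1h2ao did not pass, with a difference of 0.09 (SE 0.25, adjusted p = 0.778 by limma). The replacement variants, which are made outside S phase from single genes, were called in both directions, 3 higher and 3 lower of 9, with H2afj higher by 1.38 and H2afy2 lower by 3.03 in epithelial cells. Leukocyte genes were higher in epithelial cells in 7 of 7 tested, and their part in these differences was not tested.

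The change from E18.5 to P28 itself differed between the cell types for 2 of the 26 genes, both more positive in epithelial cells, where 5.23% of all genes were called more positive and 9.85% more negative. On the log2 CPM scale the epithelial minus the fibroblast change of Hist1h2ao was 2.43 (SE 0.79, adjusted p = 0.0438 by limma) while the normalised values went from 62.8 ± 52.2 to 233 ± 106 in epithelial cells and from 79.9 ± 32.8 to 57.4 ± 11.9 in fibroblasts (SD, n = 2). For Hist1h1a it was 2.41 (SE 0.76, adjusted p = 0.0370 by limma) while the normalised values went from 0.649 ± 0.917 to 5.15 ± 0.360 in epithelial cells and from 8.01 ± 4.97 to 4.95 ± 1.36 in fibroblasts (SD, n = 2). With 4 and 0 reads of Hist1h1a in the E18.5 epithelial libraries, the size of its difference depends on the 1 added to each value. Of the DNA replication genes 5 of 19 were called more positive in epithelial cells and 0 more negative, for example Gins2 by 4.30 and Tk1 by 3.53. No gene of the H2b or H2a set was called. The count of 2 was 4 without the E18.5 epithelial replicate 2, and 0 without the P28 epithelial replicate 1 or either P28 fibroblast library. It was 1 without any 1 of the E18.5 fibroblast libraries, the P0.5 or P7 libraries of either cell type, the E18.5 epithelial replicate 1 or the P28 epithelial replicate 2.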

How the data were processed

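Polyadenylated RNA of 21 sorted lung cell libraries was amplified and read by 3′ SAGE-seq, per the labels. The deposited values are a normalised signal per gene, which the authors made from read counts. Per the submitters' processing notes Bowtie2 2.2.5, R 3.4.0 and the build mm10 were used. In every library 100% of the values were whole multiples of 1 constant (tolerance 0.01 read), so read counts were recovered, and depth was 2146071 to 5729829 reads. Intervals and floors (3 reads) cover counting error only. No column was left unmapped. Stages were compared with limma 3.58.1 (R 4.3.3) on log2(value + 1), separately in each cell type, with genes at 3 or more in at least 2 libraries, 1 mean per stage and two-sided p-values adjusted by Benjamini-Hochberg over all genes at 0.05. Cell types were compared in the same way on TMM-scaled CPM of the recovered reads. Alternatives were edgeR 4.0.16, DESeq2 1.42.0, other scaling, pseudocounts of 0.25 and 5, no filter or a filter of 10, the replicate number as a block, each library left out, and the sum without Hist1h2al. Tag windows, stem-loops and coordinates came from GENCODE vM21 on GRCm38, assuming CATG as the anchoring site. Values in every library are given for the 8 members with the highest means, and tests for members past the threshold, at most the 8 of each direction with the largest change; other lists name at most the 3 past it with the smallest p. The members and lists were chosen with earlier results of these data known.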

Additional observations from a re-analysis of the deposited data

Results flagged for a closer look

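For 2 genes the change from E18.5 to P28 differed between epithelial cells and fibroblasts by a test of the difference itself. The log2 difference was 2.427 for Hist1h2ao and 2.407 for Hist1h1a, with both more positive in epithelial cells. For Hist1h2ao it was 1.501 without the E18.5 epithelial replicate 1, and for Hist1h1a it was 1.82 without the E18.5 epithelial replicate 2, and neither then passed the threshold. Calls were also lost when other single libraries were left out, as given above. With DESeq2, a pseudocount of 0.25 or a filter of 10 only 1 of the 2 genes was called. Without a filter on low values neither was called.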

How the results depend on the processing

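No named gene's log2 change turned sign under any alternative run, but counts moved between directions: for fibroblasts from E18.5 to P28, 2 higher and 0 lower became 0 and 1 without E18.5 replicate 2 or P28 replicate 1. The cause of each shift was not tested. With edgeR the epithelial counts were 2 from P2 to P7 and 1 from P7 to P28. With TMM scaling the count was 2 for epithelial P2 to P7 and the P56 sum was 652.9. For fibroblasts from E18.5 to P28 it was 1 with DESeq2, another gene than those reported, and 1 with a pseudocount of 0.25, which kept Hist1h2bq; for the difference between the cell types' changes both gave 1. A pseudocount of 5 gave 2 for epithelial P2 to P7 and 5 for fibroblasts from E18.5 to P28. Without a filter, epithelial counts were 0 from P0.5 to P2 and 0 from P2 to P7. Fibroblast counts were then 1 from E18.5 to P0.5, 3 from P2 to P7 (1 higher, 2 lower), 1 from P7 to P28 and 0 from E18.5 to P28. The count for the difference was also 1 in that run, for a gene other than Hist1h2ao and Hist1h1a. A filter of 10 gave 1 for fibroblasts from P0.5 to P2, 3 from P28 to P56 and 1 for the difference. Without Hist1h2al the sums were 699.3 and 496.9 in epithelial cells at P0.5 and P2, and 473.8, 621.8 and 502.2 in fibroblasts at P0.5, P2 and P56. With the replicate block the fibroblast counts were 5 from E18.5 to P28 and 8 from P28 to P56, and 2 of 78 named calls were lost. A check of pairing by replicate number gave correlations of -0.062 to 0.074 over 10 pairs of stages per cell type. Leaving out 1 library each, the epithelial counts ranged from 2 to 6 (E18.5 to P0.5), 0 to 6 (P0.5 to P2), 0 to 3 (P2 to P7) and 2 to 19 (E18.5 to P28), and the fibroblast counts from 1 to 7, 3 to 15 (P2 to P7), 1 to 3 (P7 to P28), 1 to 3 (E18.5 to P28) and 2 to 7 (P28 to P56). The count for the difference ranged from 0 to 4. Over all alternatives 1410 values of named genes kept their call and 227 lost it. Few reads limit what can be said of most H3 and H4 genes and of most H2a and H2b genes outside the 3 windows.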
